A study of Mus musculus with 13 samples.

Results

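Genes for 33 neuropeptide receptors were followed across the cell classes, the transmitter groups and the sexes of the mouse medial amygdala. They were taken by name from a list of G protein-coupled receptors for peptides, and all 33 were found among the 16961 genes of the deposited count table. The series asks how the medial amygdala, a limbic forebrain area linked to social behaviour, controls parenting in male and female mice. Libraries were made by Drop-seq, which counts each captured mRNA molecule once by its UMI (a random tag), and the tissue was dissociated by Act-seq, in which transcription is blocked during cell separation. Male mice gave 6 libraries and female mice gave 7. All were naive C57BL/6J mice, an inbred wild-type strain, 8 or 9 weeks of age, and all were singly housed for 1 day or longer before use. The labels do not tie a library to single or pooled animals, so p-values refer to differences among libraries, some of which may be technical.

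Neuropeptides are cut from larger precursors, released from dense core vesicles and act at a distance on receptors that signal through G proteins. Receptors coupled mainly to Gi inhibit adenylyl cyclase and open potassium channels, those coupled mainly to Gq activate phospholipase C, and those coupled mainly to Gs raise cAMP. In the medial amygdala, oxytocin and vasopressin receptors are known for their part in social recognition. The list held Gi receptors for somatostatin (Sstr1, Sstr2, Sstr3, Sstr4), neuropeptide Y (Npy1r, Npy2r, Npy5r), opioid peptides (Oprm1, Oprd1, Oprk1), nociceptin (Oprl1) and galanin (Galr1). Its Gq receptors were those for tachykinins (Tacr1, Tacr3), cholecystokinin (Cckar, Cckbr), oxytocin (Oxtr), vasopressin (Avpr1a), neurotensin (Ntsr1, Ntsr2), orexin (Hcrtr1, Hcrtr2), thyrotropin-releasing hormone (Trhr), bombesin-like peptides (Nmbr, Grpr) and prokineticin (Prokr2). Gs receptors were those for corticotropin-releasing hormone and urocortins (Crhr1, Crhr2), VIP and PACAP (Vipr1, Vipr2, Adcyap1r1) and melanocortins (Mc3r, Mc4r). Orexin and neurotensin receptors can couple to more than 1 kind of G protein.

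The cells carried the class that the authors gave them. After cells with fewer than 500 detected genes and called doublets were left out, 24527 cells remained, 11542 male and 12985 female, with 3718151 to 7874074 UMIs per library. Neurons made up 3615 of them. The other 7 classes were oligodendrocyte precursors (4163 cells), a class named between precursor and oligodendrocyte, called newly formed oligodendrocytes here from its markers (463), oligodendrocytes (3887), astrocytes (6445), microglia (3727), endothelial cells (1463) and mural cells (764). Defining markers were highest in their own class with 1 exception, Gpr17, which was listed for precursors. Xist and 4 Y-linked genes matched the labelled sex of every library, and 19 cell barcodes of kept cells occurred in more than 1 library. How the authors formed the classes is not stated in the sources used, and receptor genes may have been among those used, so class differences describe the classes.

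The 2 neurotensin receptor genes, and Npy1r and Npy2r for neuropeptide Y, had their highest levels in different classes, and the start regions of these 4 genes are shown for that reason. Sstr1 and Sstr2 also differed by class, and no start region of Sstr1 is shown here because the table had no entry for it. They are RefSeq promoters on GRCm38.p6, from 250 bases before to 50 bases after the annotated start, and 27 of the 33 genes had an entry. Capitals mark the GC box (GGGCGG), the TATA box (TATAAA) and the short cAMP response site (TGACG), on either strand. The Ntsr2 region is on the plus strand at chr12:16653220-16653519, that of Ntsr1 on the plus strand at chr2:180499726-180500025, that of Npy1r on the plus strand at chr8:66697172-66697471 and that of Npy2r on the minus strand at chr3:82548036-82548335.
Ntsr2: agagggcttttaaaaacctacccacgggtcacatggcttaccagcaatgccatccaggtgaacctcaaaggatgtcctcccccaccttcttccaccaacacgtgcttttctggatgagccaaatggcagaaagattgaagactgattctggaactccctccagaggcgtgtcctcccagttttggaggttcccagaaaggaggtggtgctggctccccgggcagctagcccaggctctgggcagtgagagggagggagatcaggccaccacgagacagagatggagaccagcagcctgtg
Ntsr1: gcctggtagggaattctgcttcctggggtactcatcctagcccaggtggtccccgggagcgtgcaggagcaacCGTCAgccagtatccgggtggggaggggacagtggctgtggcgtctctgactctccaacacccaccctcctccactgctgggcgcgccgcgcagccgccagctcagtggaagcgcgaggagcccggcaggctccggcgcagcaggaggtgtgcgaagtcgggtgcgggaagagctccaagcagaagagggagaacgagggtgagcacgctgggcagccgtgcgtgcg
Npy1r: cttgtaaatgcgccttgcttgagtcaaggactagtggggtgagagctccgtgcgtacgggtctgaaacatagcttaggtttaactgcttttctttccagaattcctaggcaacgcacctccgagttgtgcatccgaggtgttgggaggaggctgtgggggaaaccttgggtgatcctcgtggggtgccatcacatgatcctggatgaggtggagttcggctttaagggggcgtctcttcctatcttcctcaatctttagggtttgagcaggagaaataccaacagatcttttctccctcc
Npy2r: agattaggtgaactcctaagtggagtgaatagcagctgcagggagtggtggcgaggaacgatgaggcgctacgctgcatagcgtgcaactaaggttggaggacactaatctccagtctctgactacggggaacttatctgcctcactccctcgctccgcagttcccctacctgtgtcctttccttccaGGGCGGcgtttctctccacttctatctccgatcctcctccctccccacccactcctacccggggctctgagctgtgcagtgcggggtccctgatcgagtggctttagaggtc

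In these 300 bases Ntsr2 had 5 CpG pairs and a G and C content of 56.3%, and Ntsr1 had 23 CpG pairs and 68.0%. The Npy1r region had 10 CpG pairs and 51.7%, and the Npy2r region had 14 CpG pairs and 57.7%. The GC box was found in the Npy2r region and the short site in the Ntsr1 region. Over all 32851 promoters of the table, 35.7% held the GC box, 20.8% the short site and 13.6% the TATA box. The 27 receptor genes with an entry had 34 promoters, of which 10 held the GC box, 10 the short site and 4 the TATA box. The full cAMP response element (TGACGTCA), which contains the short site, was present in 1 of the 34 promoters and in 1.79% of all promoters. These matches describe letters in a window and no factor was measured.

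Across the classes, 26 of the 33 receptor genes had their highest pooled level in neurons. The exceptions were Sstr1, Oprl1 and Vipr2 in oligodendrocyte precursors, Ntsr2 and Adcyap1r1 in astrocytes, Npy1r in mural cells and Vipr1 in microglia. Levels are in CPM, which scale each UMI count by the total for that class, pooled over 13 libraries or per library. They are not scaled to transcript length, so each gene is compared with itself and not with other genes. Fewer cells with a transcript and fewer copies per cell cannot be told apart in summed counts. The heat map of all 33 genes shows a filled neuron column and few bright cells outside it.

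**Figure D1:**
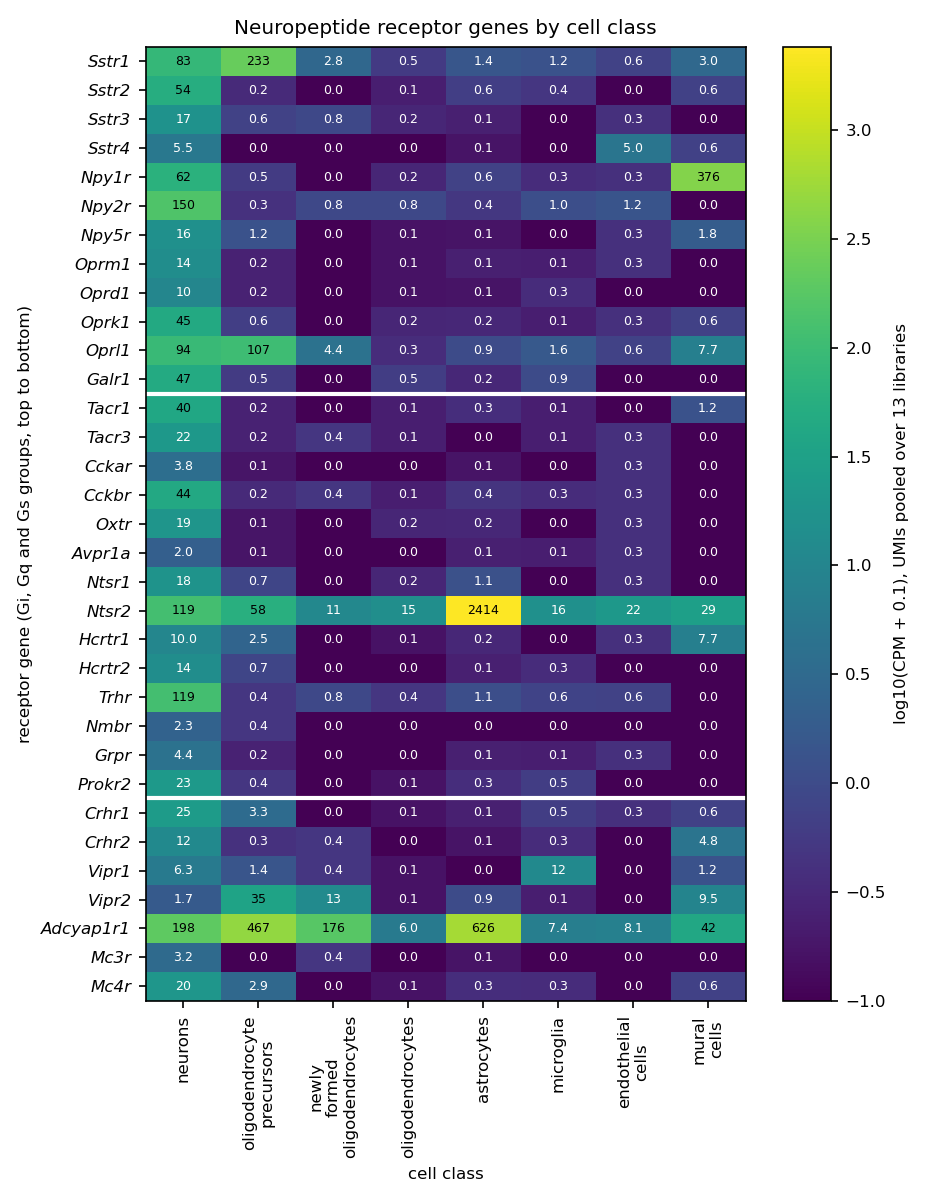
Pooled level of each receptor gene (rows, grouped as Gi, Gq and Gs) in each cell class (columns); colour is log10(CPM + 0.1) and the printed value is CPM over 13 libraries. Outside the neuron column the brightest cell is Ntsr2 in astrocytes at 2414 CPM.

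A quasi-likelihood F test in edgeR on counts summed per library and class, with the library as a block, compared each class with the mean of the other 7. It tested 12200 genes, 13 of them receptor genes. The other 20 receptor genes fell below the count filter and are given by level only. Among genes of neurons 41.9% were called higher at an adjusted p under 0.05, and 12 of the 13 tested receptor genes were. The median fitted log2 difference of these 13 was 6.74, against 0.01 over all genes tested. Passing the filter favours a gene that is high in a large class, so the count says nothing of the 20 genes that were not tested. Without the filter on low counts, 32 of the 33 were called higher in neurons (background 44.2%), the exception being Vipr2. Because the classes were compared with a mean over classes, a gene can be called higher in neurons and higher still elsewhere. When neurons were set against each class in turn, 7 of the 13 tested receptor genes were higher in neurons than in all 7 other classes, where 14.4% of all genes tested were. These were Sstr2, Npy2r, Oprk1 and Galr1 of the Gi group and Tacr1, Cckbr and Trhr of the Gq group. Each had between 95.7% and 97.9% of its UMIs in neurons, so it passed the filter through neurons. The 7 of 13, and in part the 12 of 13, were thus set by the filter and measure no enrichment.

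Npy2r, the presynaptic Y2 receptor that inhibits transmitter release, ranged over the 13 libraries from 97.7 to 219 CPM in neurons with a median of 151. In the pooled other classes it had 36 UMIs, against 1714 in neurons, and the neuron level was 238 times as high (95% counting interval 171 to 341). Its lowest neuron library stood above every library of the other classes, where the highest had 7.02 CPM. After each cell had been thinned to 800 UMIs, 8.74% of neurons (16.8% without thinning) had a Npy2r UMI, against 0.05% of oligodendrocytes, which serve as a background class for free RNA. The median depths were 1755 UMIs in neurons and 3182 in oligodendrocytes.

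Sstr2, a somatostatin receptor that hyperpolarises neurons, ranged from 31.5 to 81.6 CPM in neurons with a median of 55.3, and its neuron level was 182 times that of the pooled other classes (113 to 315). Oprk1, the kappa opioid receptor for dynorphin, ranged from 28.3 to 65.9 CPM with a median of 42.0. Galr1, an inhibitory galanin receptor, ranged from 26.0 to 82.9 CPM with a median of 42.6. All 3 were near 0 in every other class, where no pooled level passed 0.91 CPM.

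Trhr, the receptor for thyrotropin-releasing hormone, ranged from 62.0 to 212 CPM in neurons with a median of 111, and had 1364 neuronal UMIs against 35 elsewhere. Tacr1, the substance P receptor, ranged from 17.3 to 58.5 CPM with a median of 42.9. Cckbr, the cholecystokinin receptor that prevails in brain, ranged from 26.0 to 68.3 CPM with a median of 42.2. Their pooled neuron levels were 195, 209 and 180 times those of the other classes, with lower counting bounds of 139, 116 and 107. For Trhr and Cckbr every neuron library stood above every library of the other classes, while for Tacr1 a mural library reached 19.6 CPM. Tacr1 had only 2 UMIs over all mural cells, a pooled 1.19 CPM.

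Of the genes that were below the filter, most were lower in level, and all but Vipr1 had most of their UMIs in neurons. The share in neurons was 39.1% for Vipr1, 69.9% for Hcrtr1 and 77.8% for Sstr4, and reached 97.3% for Tacr3. Tacr3, the neurokinin B receptor, had 249 UMIs in neurons and 7 in all other cells. Oxtr, the oxytocin receptor, had 219 and 8, and Oprm1, the mu opioid receptor, had 158 and 7. Prokr2 had 257 and 14, and Hcrtr2 had 159 and 13. Mc4r, a melanocortin receptor that regulates feeding, had 232 and 44, of which 36 were in oligodendrocyte precursors. Crhr1, the main receptor for corticotropin-releasing hormone, had 284 and 50, of which 41 were in precursors. Avpr1a, the vasopressin receptor of brain, was scarce, with 23 UMIs in 3615 neurons and 5 elsewhere. Nmbr had 26 neuronal UMIs, Mc3r had 36, Cckar had 43 and Grpr had 50, which limits any further division of these genes.

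Astrocytes stood out through Ntsr2, the low-affinity neurotensin receptor, which is known as an astrocyte transcript in mouse brain. It ranged over libraries from 1917 to 2988 CPM in astrocytes with a median of 2413. Neurons had between 5.84 and 297 CPM with a median of 115. No neuron library reached the lowest astrocyte library, and astrocytes were higher than the mean of the other classes by 6.57 ± 0.10 on the log2 scale (SE, adjusted p = 9.1e-72, edgeR), where 36.7% of all genes tested were called higher. At 800 UMIs per cell, 82.3% of astrocytes (94.1% without thinning) had a Ntsr2 UMI, compared with 1.25% of oligodendrocytes. Ntsr1, the high-affinity neurotensin receptor, went the other way, with 1.12 CPM in astrocytes and 18.0 CPM in neurons.

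Ntsr2 in the neuron class moved with astrocyte markers. Neurons in which neither Slc32a1 nor Slc17a6 (the vesicular GABA and glutamate transporters) was detected numbered 938 and held 1056 of the 1361 neuronal Ntsr2 UMIs. These neurons had Ntsr2 at 689 CPM and 7 astrocyte markers at a summed 12234 CPM (342 to 23550 over libraries), with none of the 7 at 0. Neurons with a Slc32a1 UMI had 33.8 CPM of Ntsr2 and 841 CPM of the astrocyte markers, and neurons with a Slc17a6 UMI had 28.3 and 830 CPM. With neurons limited to those with a transporter UMI, a check added after the values were seen, the fitted log2 difference of Ntsr2 in neurons from the other classes was -0.32 (adjusted p = 0.10, edgeR), compared with 1.64 over all neurons.

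Adcyap1r1, the PAC1 receptor for PACAP, was present in several classes. It ranged from 523 to 719 CPM in astrocytes, from 390 to 511 CPM in oligodendrocyte precursors and from 150 to 244 CPM in neurons, and these ranges did not overlap. Newly formed oligodendrocytes had 39.0 to 227 CPM, and pooled levels in oligodendrocytes, microglia and endothelial cells were 6.05, 7.39 and 8.12 CPM. Set against the mean of the other classes, it was higher by 3.94 ± 0.07 in astrocytes, 3.07 ± 0.07 in precursors, 2.09 ± 0.08 in neurons and 1.55 ± 0.12 in newly formed oligodendrocytes (log2, SE, all with adjusted p of 4.9e-24 or less in edgeR). The background of higher calls was 44.1% in precursors and 29.2% in newly formed oligodendrocytes. Neurons were lower than astrocytes by 1.62 ± 0.08 when set against them directly.

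**Figure D2:**
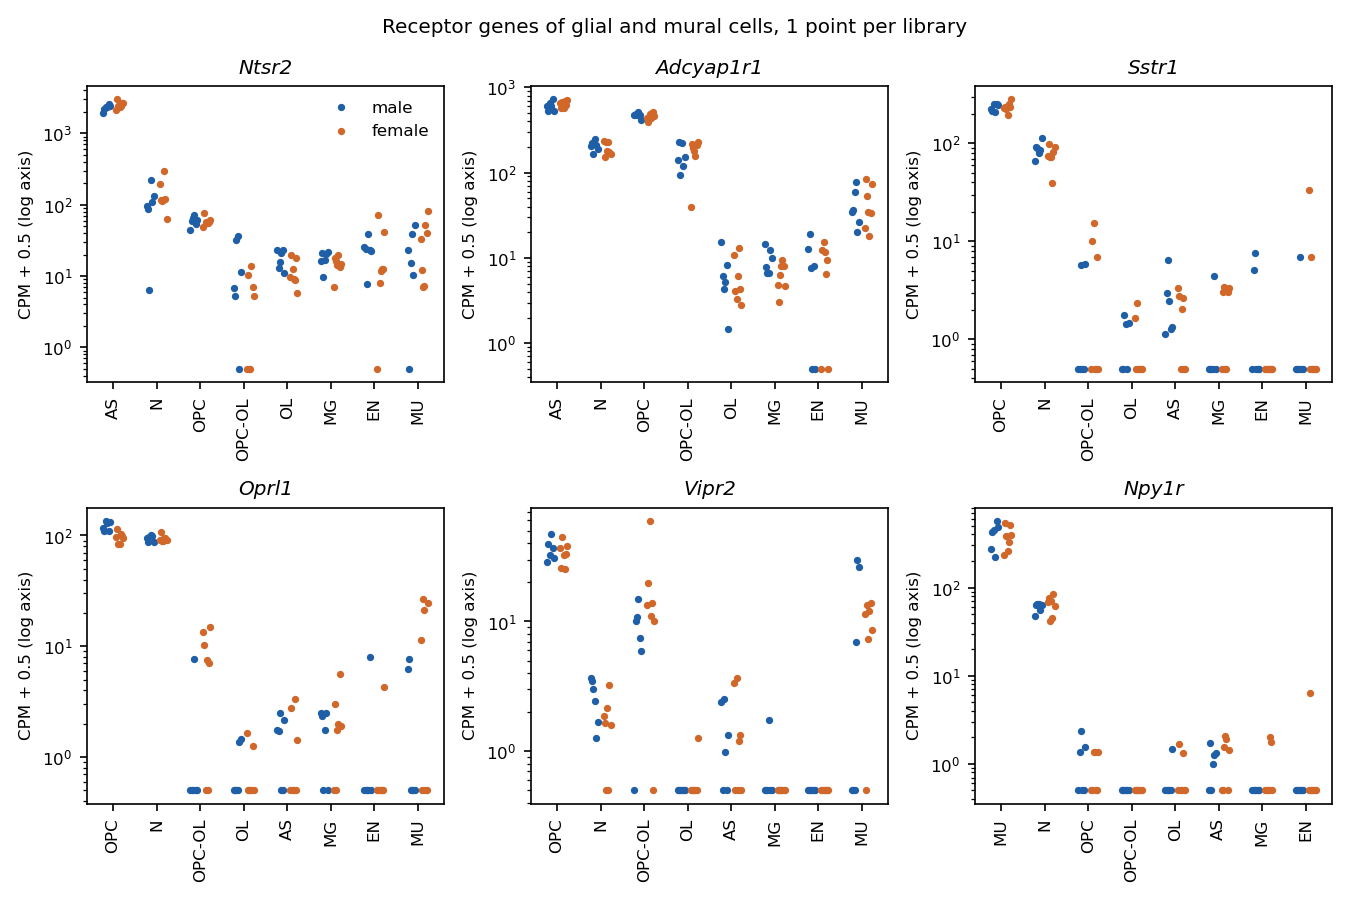
CPM + 0.5 on a log axis for 6 receptor genes in each class, 1 point per library (blue male, orange female), with the class of highest level at the left. Points at the bottom of a panel are libraries with a count of 0; Ntsr2 in astrocytes spans 1917 to 2988 CPM in all 13 libraries, above every other class.

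Oligodendrocyte precursors had 4 receptor genes above the mean of the other classes, Adcyap1r1 being the first. Sstr1, a somatostatin receptor, ranged from 195 to 280 CPM in precursors with a median of 234, and from 38.9 to 112 CPM in neurons with a median of 81.7. No neuron library reached the lowest precursor library. It was higher in precursors than in the mean of the other classes by 6.16 ± 0.11, and neurons were lower than precursors by 1.17 ± 0.09 (log2, SE, adjusted p = 8.7e-25, edgeR). In newly formed oligodendrocytes, 7 UMIs gave 2.77 CPM, and in oligodendrocytes the level was 0.47 CPM. The other somatostatin receptors did not share this, as Sstr2 had 0.24 CPM and Sstr3 had 0.64 CPM in precursors, and Sstr4 had no UMI, which allows up to 0.24 CPM.

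Oprl1, the nociceptin receptor, ranged from 83.5 to 135 CPM in precursors and from 86.0 to 107 CPM in neurons. These ranges overlapped, and the fitted difference of neurons from precursors was 0.17 ± 0.10 on the log2 scale (adjusted p = 0.11), opposite in sign to the pooled levels of 94.2 and 107 CPM. Vipr2, the VPAC2 receptor for VIP and PACAP, ranged from 25 to 47 CPM in precursors, with a pooled 12.7 CPM in newly formed oligodendrocytes, 9.54 in mural cells and 1.66 in neurons. It was higher in precursors by 4.55 ± 0.18, in newly formed oligodendrocytes by 3.04 ± 0.36 and in mural cells by 2.56 ± 0.44 (log2, SE, adjusted p of 1.7e-07 or less in edgeR). The mural value rested on 16 UMIs and 4 of the 13 libraries had none.

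Mural cells, the pericytes and smooth muscle cells of vessel walls, had Npy1r, the Y1 receptor through which neuropeptide Y constricts vessels. The mural class also held 5 leptomeningeal markers at a summed 4064 CPM (1955 to 6135 over libraries), beside its mural markers at 26908 CPM. The next highest class for the leptomeningeal markers was astrocytes, at 50.3 CPM. Which cells of the class held Npy1r, or the other receptor genes given for mural cells, was not tested. Npy1r ranged from 224 to 568 CPM in mural cells with a median of 389, and from 40.8 to 83.1 CPM in neurons with a median of 63.6. The library ranges did not overlap. Mural cells were higher than the mean of the other classes by 8.45 ± 0.15 (log2, SE, adjusted p = 2.6e-99, edgeR, where 23.1% of genes were called higher). At 800 UMIs per cell, 19.6% of mural cells (33.5% without thinning) and 5.18% of neurons had a Npy1r UMI, against 0.06% of microglia, whose median depth was 1788 UMIs and that of mural cells 1632. Npy2r had 0 UMIs in mural cells, a level of at most 1.79 CPM if the count of 0 is read as up to 3 UMIs over the class. Npy5r, which lies beside Npy1r on chromosome 8, had 1.79 CPM in mural cells and 16.0 CPM in neurons.

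In the fit without the filter on low counts, another 13 pairs of gene and non-neuronal class, from 10 genes below the filter, were called higher than the mean of the other classes (background 18.8% of all genes in mural cells, 23.0% in endothelial cells, 33.1% in microglia, 38.6% in astrocytes and 44.4% in precursors). Vipr1, the VPAC1 receptor, had 91 UMIs in microglia, 11.8 CPM, and 72 in neurons, 6.31 CPM, and was called higher in microglia by 4.20 ± 0.29 (adjusted p = 2.8e-29, edgeR without the filter, background 33.1%). Sstr4 had 16 UMIs in endothelial cells, 5.0 CPM (2.86 to 8.12, counting interval), and 63 in neurons, 5.52 CPM. Hcrtr1, an orexin receptor, had 13 UMIs in mural cells, 7.75 CPM, and 114 in neurons, 9.99 CPM, with 6 of the 13 mural libraries at 0. Crhr2, a urocortin receptor, had 8 UMIs in mural cells, 4.77 CPM, with 9 of the 13 libraries at 0, and was called higher there by 2.91 ± 0.53 (adjusted p = 1.6e-06). In precursors 7 genes were called, at levels of 0.40 to 3.27 CPM: Crhr1 (41 UMIs), Mc4r (36), Hcrtr1 (31), Vipr1 (17), Npy5r (15), Hcrtr2 (9) and Nmbr (5). The last of the 13 were Ntsr1 in astrocytes, from 16 UMIs, and Npy5r in mural cells, from 3 UMIs. Microglia, oligodendrocytes and endothelial cells had no receptor gene called higher with the filter, where 37.1%, 37.6% and 28.7% of all genes were. Calls of a lower level were made for Adcyap1r1, Ntsr2, Oprl1 and Sstr1 in each of these 3 classes and for Vipr2 in endothelial cells (background 38.6% in microglia, 35.5% in oligodendrocytes and 39.5% in endothelial cells). Astrocytes were lower for Oprl1 and Sstr1 (background 33.9%), newly formed oligodendrocytes for Npy1r and Ntsr2 (29.9%) and mural cells for Adcyap1r1, Npy2r and Ntsr2 (31.7%). Neither neurons nor precursors had a tested receptor gene called lower, where 35.2% and 25.4% of all genes were. DESeq2 made more calls of a lower level, 46 in all 8 classes, against 20 in edgeR. It called 7 of the 13 genes lower in precursors (31.5% of all genes), 12 in oligodendrocytes (52.9%), 9 in astrocytes (35.2%), 8 in microglia (44.4%) and 6 in endothelial cells (40.9%).

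With the counts of all 33 genes summed and cells thinned to 800 UMIs, 58.3% of neurons had at least 1 receptor UMI (47.6% to 63.7% over libraries). The share was 88.9% in astrocytes, or 38.4% without Ntsr2, 52.4% in precursors, 26.2% in mural cells and 16.4% in newly formed oligodendrocytes. It was 3.27% in microglia, 3.20% in endothelial cells and 2.24% in oligodendrocytes. Without thinning the shares were 76.2% in neurons, 96.7% in astrocytes, 84.6% in precursors and 7.67% in oligodendrocytes. Thinning left out 274 neurons and 333 astrocytes that were too shallow, and 18 to 257 cells of each other class. Thinned to 1500 UMIs, 50.2% of Slc32a1 neurons and 49.4% of Slc17a6 neurons had UMIs of 2 or more receptor genes (65.4% and 61.4% without thinning). A second random draw gave 48.3% of Slc32a1 neurons and 50.5% of Slc17a6 neurons, so the order of the groups changed with the draw.

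Neurons were next divided by their vesicular transporter. Slc32a1 neurons, which package GABA, numbered 1371, Slc17a6 neurons, which package glutamate, numbered 1255, and 51 neurons had UMIs of both. The median depths were 2275 UMIs in Slc32a1 neurons and 2145 in Slc17a6 neurons. Of 6191 genes tested with the library as a block, 8.75% were called higher with Slc32a1 and 8.87% higher with Slc17a6. Of the 12 receptor genes that passed the count filter, 2 were higher with Slc32a1 and 4 were higher with Slc17a6, and their median log2 difference was -0.42, against 0.00 over all genes tested. The 6 that were called came from all 3 coupling groups.

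Adcyap1r1 and Oprk1 were higher with Slc32a1. Adcyap1r1 ranged from 194 to 319 CPM in Slc32a1 neurons with a median of 245, against 72.7 to 188 CPM in Slc17a6 neurons with a median of 137. It was higher with Slc32a1 in 13 of 13 libraries and the ranges did not overlap, with a log2 difference of 0.96 ± 0.11 (SE, adjusted p = 5.8e-10, edgeR). Oprk1 ranged from 34.7 to 120 CPM in Slc32a1 neurons with a median of 55.6, against 5.53 to 60.3 CPM in Slc17a6 neurons with a median of 35.7. It was higher in 12 of 13 libraries, although the ranges overlapped, with a log2 difference of 0.88 ± 0.18 (adjusted p = 1.7e-04).

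Trhr, Npy1r, Galr1 and Sstr1 were higher with Slc17a6. Trhr ranged from 18.5 to 128 CPM in Slc32a1 neurons with a median of 76.1, against 93.5 to 321 CPM in Slc17a6 neurons with a median of 182. Its log2 difference was -1.51 ± 0.14 (SE, adjusted p = 1.7e-10, edgeR), and it was lower with Slc32a1 in each of the 13 libraries. Npy1r ranged from 21 to 67.4 CPM in Slc32a1 neurons with a median of 44.2, against 67.5 to 139 CPM in Slc17a6 neurons with a median of 98.9. Every Slc17a6 library was above every Slc32a1 library, by a log2 difference of -1.18 ± 0.14 (adjusted p = 3.3e-09).

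Galr1 had 39.5 CPM in Slc32a1 neurons and 67.5 CPM in Slc17a6 neurons, with a log2 difference of -0.75 ± 0.23 (adjusted p = 0.025, edgeR) and the lower level with Slc32a1 in 11 of 13 libraries. The call was lost without female replicate 2 (adjusted p = 0.052) and without female replicate 4 (0.051). Sstr1 had 76.7 CPM in Slc32a1 neurons and 107 CPM in Slc17a6 neurons, with a log2 difference of -0.45 ± 0.14 (adjusted p = 0.017) and the lower level with Slc32a1 in 11 of 13 libraries. That call was lost without male replicate 4 (adjusted p = 0.058) and in DESeq2 (0.063).

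**Figure D3:**
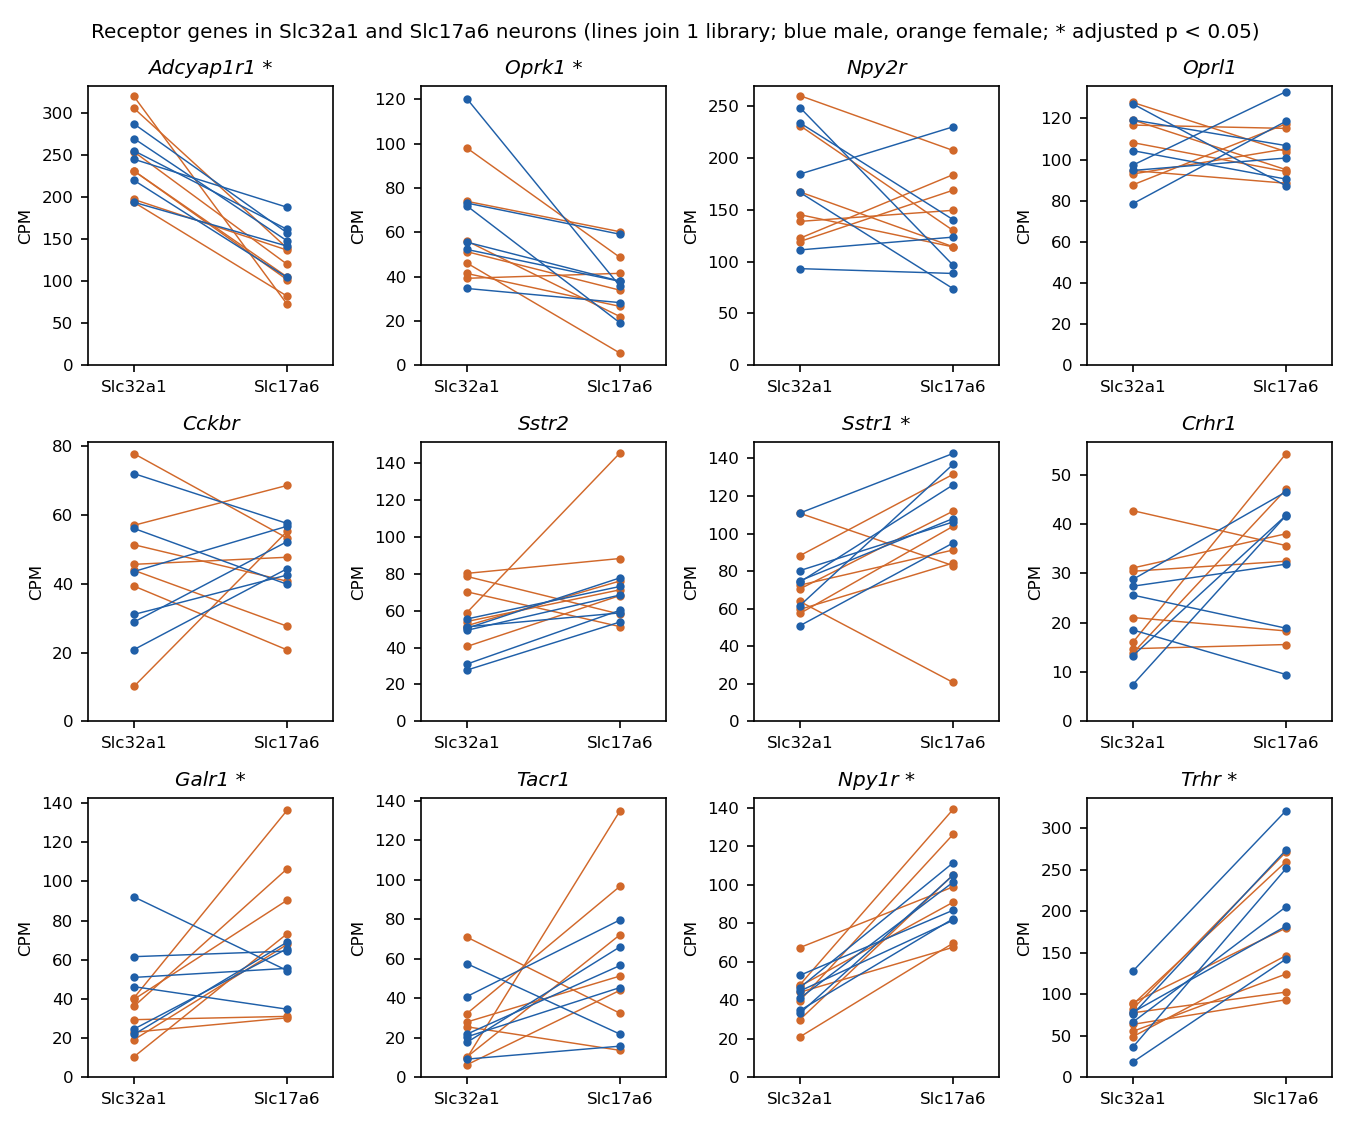
CPM in Slc32a1 neurons (left) and Slc17a6 neurons (right) for the 12 receptor genes tested, with a line for each of 13 libraries (blue male, orange female) and an asterisk for an adjusted p under 0.05. All 13 lines fall to the right for Adcyap1r1 and all 13 climb for Npy1r and Trhr.

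Of the 6 tested genes that were not called, the 3 with the highest level were Npy2r, Oprl1 and Sstr2. Npy2r had 172 CPM in Slc32a1 neurons and 135 CPM in Slc17a6 neurons, a log2 difference of 0.33 ± 0.14 (adjusted p = 0.11, edgeR). Oprl1 had 104 CPM in Slc32a1 neurons and 104 CPM in Slc17a6 neurons, with a difference of 0.03 ± 0.12 (adjusted p = 0.89). Sstr2 had 52.3 and 70.1 CPM in the same order, with a difference of -0.39 ± 0.15 (adjusted p = 0.058). Tacr1 had 27.9 CPM in Slc32a1 neurons and 54.0 CPM in Slc17a6 neurons, a log2 difference of -0.90 ± 0.35 (adjusted p = 0.092, edgeR). It was called in DESeq2 (-0.99, adjusted p = 0.016) and with no filter on cells (adjusted p = 0.028, edgeR). Crhr1 and Cckbr had adjusted p of 0.071 and 0.82.

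Scarcer receptors were below the count filter between the transmitter groups, and their values come from the fit without it, where 16450 genes gave 4.50% of higher and 5.04% of lower calls. Tacr3 had 203 UMIs, 41.3 CPM, in Slc32a1 neurons and 27 UMIs, 5.88 CPM, in Slc17a6 neurons, and all 13 libraries had the higher level with Slc32a1 (log2 difference 2.85 ± 0.28, adjusted p = 1.0e-22, edgeR without the filter). Crhr2, the urocortin receptor, had 113 UMIs with Slc32a1 and 10 with Slc17a6 (3.24 ± 0.41). Ntsr1 had 154 and 36, Mc3r had 30 and 5 (2.23 ± 0.68), and Oxtr had 137 and 66 (1.0 ± 0.25). In the other direction Prokr2 had 49 UMIs with Slc32a1 and 183 with Slc17a6 (-1.84 ± 0.26). Hcrtr1 had 22 and 80 (-1.80 ± 0.39), and Sstr3 had 54 and 118 (-1.17 ± 0.28). In all, 16 of the 33 were called in that fit, 8 in each direction, where the background was 9.54% of genes.

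Companion lists were tested in the same fits, where 8.75% of all genes were higher and 8.87% lower with Slc32a1. Of 28 ligand precursor genes, 23 were in the table and 12 were tested between the transmitter groups, of which 6 were higher with Slc32a1 and 5 with Slc17a6. Ucn3, which encodes the Crhr2 ligand urocortin 3, was higher with Slc32a1 by 7.62 ± 0.28 on the log2 scale. Adcyap1, which encodes PACAP, was lower with Slc32a1 by a log2 difference of -6.94 ± 0.20 (adjusted p = 1.6e-31, edgeR), opposite to its receptor gene Adcyap1r1. A list of other neuropeptide receptors held 44 genes, some of them for accessory or binding proteins, such as Ramp1. Of these 44, 28 were in the table and 5 were tested, with 1 higher (Gpr83) and 2 lower (Ramp1, Qrfpr) with Slc32a1. Of 47 genes of G protein signalling, 33 were tested, with 5 higher (15.2%) and 3 lower (9.09%), Plcb1 being lower by a log2 difference of -0.55 ± 0.10. Between neurons and the other classes, 33 of 44 tested G protein genes were higher in neurons (75.0%, against 41.9% of all genes) and 8 lower (18.2%, against 35.2%), led by the potassium channel gene Kcnj9. From the list of other receptors, 10 genes were tested there, with 5 higher in neurons and 4 lower, shares near those of all genes. Of 11 tested ligand genes 10 were higher in neurons and 0 lower.

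The sexes were compared within the 8 classes and the transmitter groups, in 10 fits with the library as the replicate. No receptor gene was called in any of the 63 pairs of gene and fit tested, where 0.371% of all genes tested were called over the 10 fits. The background by fit was 0.0889% in newly formed oligodendrocytes, 0.261% in oligodendrocytes, 0.349% in microglia, 1.28% in endothelial cells, 0.123% in mural cells, 0.0892% in Slc32a1 neurons and 0.0832% in Slc17a6 neurons. The lowest adjusted p was 0.28. At an unadjusted p under 0.05 there were 8 of 63 pairs in edgeR and 7 in DESeq2, which called none after adjustment. At that cut edgeR had 591 of 9635 genes in neurons, 541 of 6724 in Slc32a1 neurons and 239 of 6009 in Slc17a6 neurons. It had 647 of 10651 in precursors, 656 of 8422 in oligodendrocytes and 1015 of 9779 in astrocytes. DESeq2 had 514, 440, 191, 469, 539 and 851 in the same order. The neuron fit holds the cells of both transmitter fits, so the pairs are not separate. SEs of the log2 difference ran from 0.07 to 0.75 with a median of 0.25, so small differences were not detectable in the pairs with a large SE. The fitted differences were above 0 (higher in male) in 27 pairs and below 0 in 36.

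The pair nearest to the threshold was Oprl1 in oligodendrocyte precursors. It had 108 to 135 CPM in male libraries with a median of 122, against 83.5 to 114 CPM in female libraries with a median of 96.3. The ranges overlapped, and the log2 difference was 0.34 ± 0.10 (SE, unadjusted p = 0.0011, adjusted p = 0.28, edgeR, background 0.131%). Adcyap1r1 and Sstr1 in the same cells differed by 0.02 ± 0.07 and -0.03 ± 0.08. In astrocytes, where 1.16% of genes were called, Ntsr2 averaged 2314 ± 237 CPM in male libraries and 2519 ± 273 CPM in female libraries (SD, n = 6 and 7), a log2 difference of -0.15 ± 0.07 (adjusted p = 0.48, edgeR). Adcyap1r1 there averaged 606 ± 73.4 CPM in male libraries and 640 ± 56.4 CPM in female libraries. Npy1r in mural cells averaged 405 ± 132 CPM in male libraries and 377 ± 117 CPM in female libraries, and its log2 difference was 0.08 ± 0.21 (adjusted p = 0.99, edgeR).

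In neurons 24 of the receptor genes were tested by sex, with a background of 0.0623%. The 3 with the highest level were Adcyap1r1, Npy2r and Ntsr2, with log2 differences of 0.05 ± 0.13, -0.15 ± 0.17 and -0.44 ± 0.55. Hcrtr2, an orexin receptor, had 6.76 to 32.1 CPM in male libraries with a median of 17.3, and 4.41 to 14.8 CPM in female libraries with a median of 9.24. Its ranges overlapped and its log2 difference was 0.98 ± 0.33 (unadjusted p = 0.0055, adjusted p = 0.69, edgeR). Sstr2 averaged 48.0 ± 9.75 CPM in male libraries and 62.4 ± 11.9 CPM in female libraries, a log2 difference of -0.39 ± 0.17 (adjusted p = 0.77, edgeR). In Slc32a1 neurons, Galr1 averaged 49.6 ± 25.9 CPM in male libraries and 28.4 ± 11.4 CPM in female libraries, a log2 difference of 0.75 ± 0.32 (adjusted p = 0.59, edgeR). In Slc17a6 neurons, Adcyap1r1 averaged 150 ± 27.4 CPM in male libraries and 108 ± 25.6 CPM in female libraries, a log2 difference of 0.46 ± 0.18 (adjusted p = 1.0, edgeR). Ntsr2 in oligodendrocytes, the remaining pair under an unadjusted p of 0.05 beside Sstr2 in Slc32a1 neurons, averaged 17.4 CPM in male libraries and 11.5 CPM in female libraries (log2 difference 0.66 ± 0.25).

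**Figure D4:**
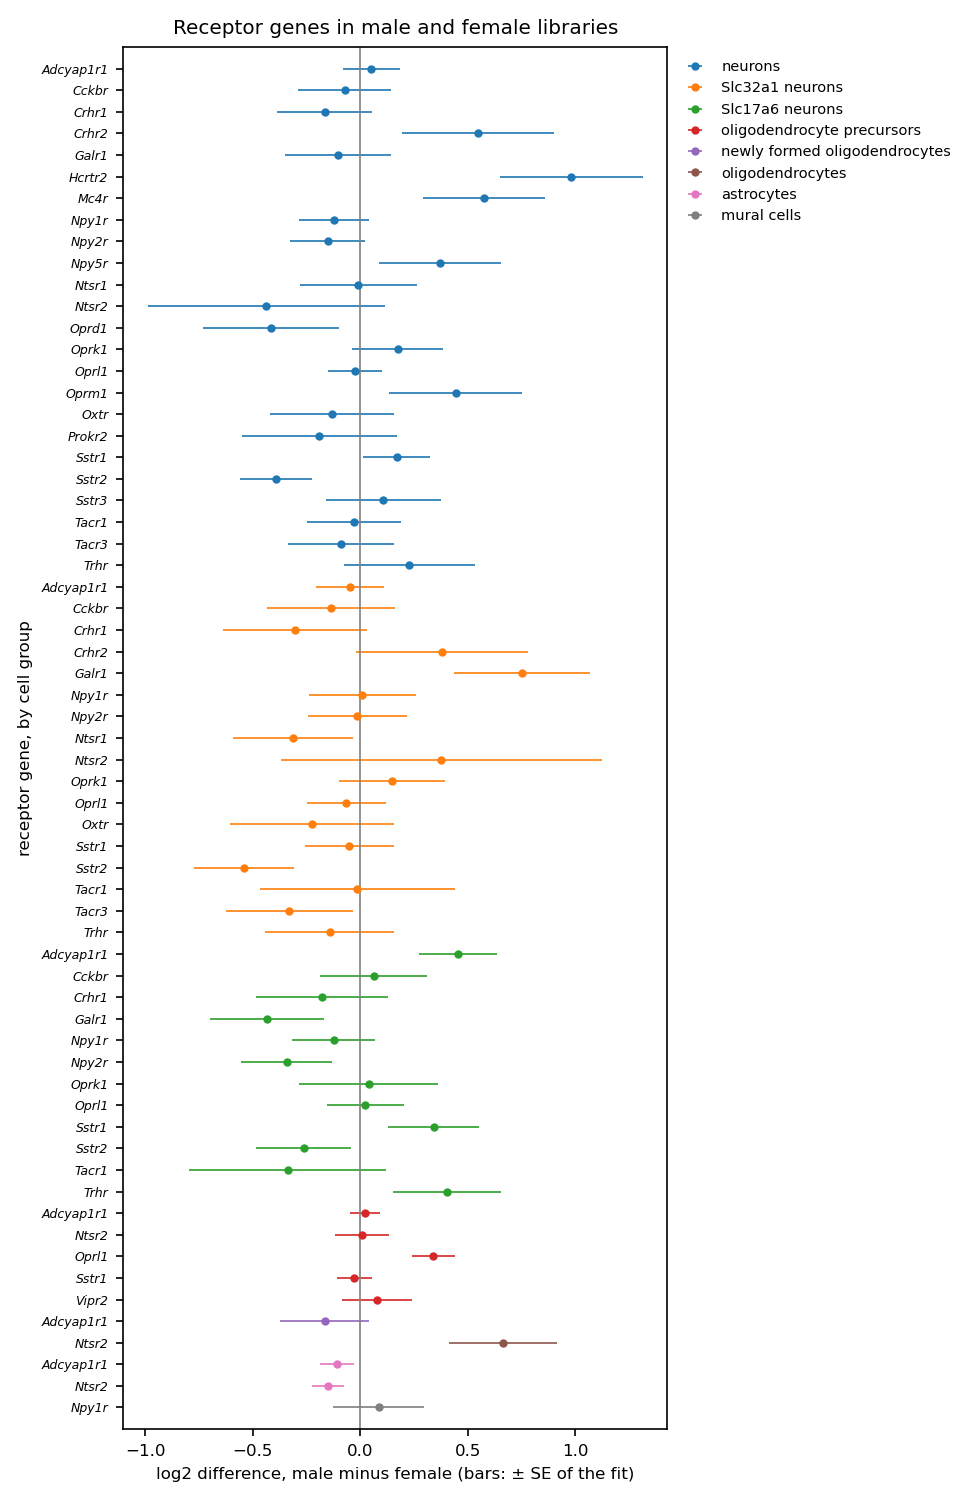
Log2 difference, male minus female, with the SE of the fit, for every receptor gene tested in each cell group (colour). None of the 63 points has an adjusted p under 0.05, and the point farthest from 0 is Hcrtr2 in neurons at 0.98.

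Whether the sex difference itself differed between Slc32a1 and Slc17a6 neurons was tested with an interaction term over 7388 genes, of which 0.0135% were called. None of the 19 receptor genes tested was among them in edgeR or in DESeq2. At an unadjusted p under 0.05 there were 335 of the 7388 genes in edgeR and 144 in DESeq2. Of the 19 receptor genes 3 passed that cut in each tool, namely Galr1, Adcyap1r1 and Trhr in edgeR. Galr1 had the largest of these 3, 1.08 ± 0.38 (unadjusted p = 0.0074, adjusted p = 0.98, edgeR), its fitted male minus female difference being 0.75 in Slc32a1 neurons and -0.43 in Slc17a6 neurons.

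Receptor genes were then set beside the genes of peptides in the same neurons, by comparing neurons with at least 1 UMI of a ligand gene with neurons without. Of 16 ligand genes, 10 had enough positive neurons in at least 6 libraries, from 154 neurons for Nts to 997 for Penk. Positive neurons were deeper, with median UMIs of 2067 to 3812, against 1584 to 1691 in negative neurons. Over 124 pairs of receptor and ligand gene, 32 were higher and 19 lower in ligand-positive neurons, against a background of 5.47% and 4.74% of all genes tested. The share of all genes called higher and lower was 1.19% and 1.29% for Sst, 1.73% and 1.9% for Npy, 1.37% and 1.87% for Pdyn, 1.56% and 2.5% for Nts and 3.76% and 3.29% for Trh. It was 4.26% and 4.61% for Pnoc, 5.07% and 3.65% for Tac1, 5.53% and 2.99% for Cck, 11.9% and 9.23% for Adcyap1 and 16.7% and 14.8% for Penk. A ligand UMI also marks the transmitter group, so each fit was repeated with the library and the transmitter group as blocks, a check added after the values were seen. Of 72 pairs tested there, 15 were higher and 6 lower. The background of this second fit ran from 0.188% of higher calls for Pnoc to 19.2% for Penk. For lower calls it ran from 0.667% for Cck to 15.9% for Penk. For Adcyap1 it was 16.8% higher and 13.2% lower, and the next highest was Trh with 3.93% and 3.04%. Most of the 15 higher pairs were beside Penk or Adcyap1, where the backgrounds were highest.

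Trhr differed beside 7 of the 10 ligands, higher with 4 and lower with 3. It had 267 CPM in Penk-positive neurons and 53.8 CPM in Penk-negative neurons, a log2 difference of 2.40 ± 0.21 (higher in 13 of 13 libraries), and Penk encodes enkephalins. Within the transmitter groups the difference was 2.05 (adjusted p = 1.3e-05, edgeR). The level was 425 CPM in Slc17a6 neurons with Penk and 73.4 CPM in Slc17a6 neurons without it. Trhr had 326 CPM in Pdyn-positive neurons against 96.1 CPM in Pdyn-negative ones, and 313 CPM in Adcyap1-positive neurons against 70.7 CPM in Adcyap1-negative ones. Beside Sst it ran the other way, with 29.2 CPM in Sst-positive neurons and 136 CPM in Sst-negative neurons, lower in all 13 libraries. These 4 differences kept their sign and their call within the transmitter groups.

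Receptors were also set beside their own ligand. Of 11 such pairs tested, 3 were called, and all 3 were lower in the ligand-positive neurons. Own receptors below the count filter were not tested and went both ways, by examples singled out after they were seen. In Slc32a1 neurons Cckar had 24.7 CPM with Cck and 0.24 CPM without, from 19 and 1 UMIs. In Slc17a6 neurons it had 6.38 and 1.78 CPM. Ntsr1 in Slc32a1 neurons had 23.2 CPM with Nts and 32.0 CPM without, from 9 and 145 UMIs. Npy1r had 16 UMIs, 20.7 CPM, in Npy-positive neurons and 644 UMIs, 66.5 CPM, in Npy-negative neurons, a log2 difference of -1.56 ± 0.39 (adjusted p = 0.0091, edgeR). It was lower in 11 of 12 libraries. Within Slc32a1 neurons the levels were 8.32 and 46.6 CPM in the same order, from 5 and 201 UMIs, too few for a test. In Slc17a6 neurons they were 80.6 CPM in Npy-positive and 97.8 CPM in Npy-negative neurons, from 7 and 441 UMIs. Ntsr2 was lower in Nts-positive neurons by a log2 difference of -3.0 ± 0.39, from 11 UMIs against 934. The astrocyte markers moved with it, at a summed 558 CPM in Nts-positive and 2264 CPM in Nts-negative neurons, and the call was lost with doublets kept or with no filter on cells. In Pdyn-positive neurons, where Ntsr2 was also called lower, the markers summed to 431 CPM, against 2470 CPM in Pdyn-negative neurons. In Npy-positive neurons Ntsr2 had 189 CPM, against 116 CPM in Npy-negative neurons, and the markers had 3238 and 2222 CPM in the same order. The part of astrocyte RNA in these Ntsr2 values was not tested.

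Adcyap1r1 beside Adcyap1 had 150 CPM in Adcyap1-positive neurons and 210 CPM in Adcyap1-negative neurons, a log2 difference of -0.42 ± 0.13 (adjusted p = 0.013, edgeR). Of 593 Adcyap1-positive neurons, 524 were Slc17a6 neurons and 13 were Slc32a1 neurons. Within the transmitter groups the difference was 0.44 ± 0.17 (adjusted p = 0.041), with 149 CPM in Adcyap1-positive and 120 CPM in Adcyap1-negative Slc17a6 neurons. In Slc32a1 neurons the order of the levels was the opposite, with 182 CPM in the 13 Adcyap1-positive and 244 CPM in the Adcyap1-negative neurons. The fit within the groups took sums with 5 or more positive neurons, so it rested mostly on Slc17a6 neurons. The astrocyte markers moved with Adcyap1 too, at a summed 848 CPM in Adcyap1-positive and 2725 CPM in Adcyap1-negative neurons, and their part in the Adcyap1r1 values was not tested. Trhr beside Trh was -0.58 ± 0.28 over all neurons (adjusted p = 0.27) and -1.45 ± 0.28 within the transmitter groups (adjusted p = 1.5e-04, edgeR). That fit too rested mostly on Slc17a6 neurons, of which 190 were Trh-positive, against 11 Slc32a1 neurons. Trhr had 90.8 CPM in Trh-positive and 238 CPM in Trh-negative Slc17a6 neurons. The other own pairs were not called. Sstr1 beside Sst differed by 0.46 ± 0.17 (adjusted p = 0.15), and was called higher when at least 2 UMIs of Sst were required (0.65 ± 0.20, adjusted p = 0.036, edgeR). Sstr2 beside Sst differed by -0.31 ± 0.23, Npy2r beside Npy by -0.57 ± 0.24, and Oprk1 beside Pdyn by 0.48 ± 0.26. Oprl1 beside Pnoc differed by 0.23 ± 0.15, Tacr1 beside Tac1 by 0.17 ± 0.37 and Cckbr beside Cck by -0.23 ± 0.16. Tacr1 ran opposite ways by transmitter group. In Slc32a1 neurons it had 44.9 CPM with Tac1 and 20.0 CPM without, from 70 and 67 UMIs. In Slc17a6 neurons it had 22.4 and 63.1 CPM in the same order, from 23 and 225 UMIs. Sstr2 had 34.9 CPM with Sst and 57.9 CPM without in Slc32a1 neurons, but 104 and 68.0 CPM in Slc17a6 neurons. Neither pair was tested within the groups.

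**Figure D5:**
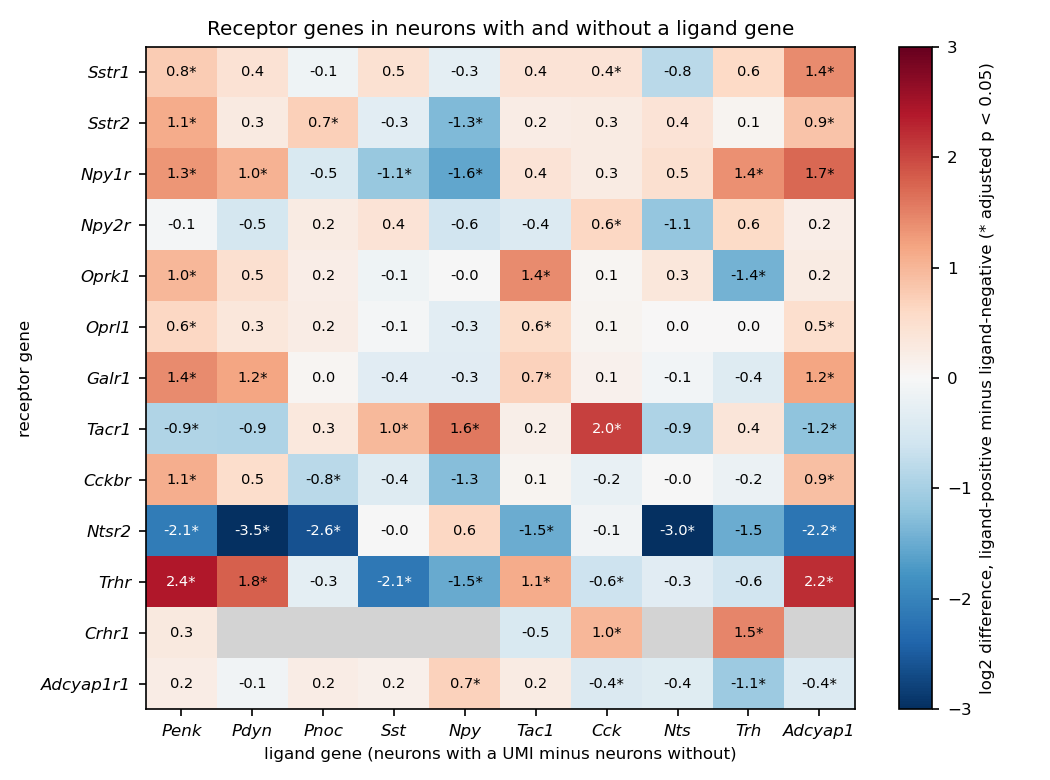
Log2 difference of each tested receptor gene (rows) between neurons with and without a UMI of each ligand gene (columns), positive minus negative, with an asterisk for an adjusted p under 0.05 and grey where the gene was below the count filter. Trhr runs from 2.40 beside Penk to -2.14 beside Sst.

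Other receptor genes differed beside ligand genes that are not their own. Tacr1 had 81.4 CPM in Cck-positive neurons and 20.3 CPM in Cck-negative neurons, higher in 13 of 13 libraries (2.04 ± 0.19, log2 and SE). It had 105 CPM in Npy-positive neurons and 36.7 CPM in Npy-negative neurons, from 81 and 356 UMIs. Oprk1 had 81.0 CPM in Tac1-positive neurons and 33.1 CPM in Tac1-negative neurons, higher in 11 of 13 libraries (1.42 ± 0.24). Sstr1 had 159 CPM in Adcyap1-positive neurons and 63.7 CPM in Adcyap1-negative neurons, higher in 13 of 13 libraries (1.42 ± 0.15), and the difference was 1.59 within the transmitter groups. Crhr1 had 59.0 CPM in Trh-positive neurons and 21.2 CPM in Trh-negative neurons, higher in 9 of 11 libraries (1.46 ± 0.33). Of these pairs only Sstr1 beside Adcyap1 was also tested within the transmitter groups. Cck-positive neurons included 547 Slc17a6 and 167 Slc32a1 neurons, and Trh-positive neurons 190 and 11. The part of the transmitter group in the other pairs was not tested. Penk-positive and Adcyap1-positive neurons had the most receptor genes called, with 8 higher and 2 lower of 13 tested and 7 higher and 3 lower of 12, and they also had the highest backgrounds (16.7% and 11.9% of genes higher). The astrocyte markers were lower in both, at a summed 843 CPM in Penk-positive and 3016 CPM in Penk-negative neurons beside the Adcyap1 values given above, and their part in these calls was not tested. The markers were also lower in Tac1-positive neurons (1063 CPM, against 2778) and in Trh-positive neurons (741 CPM, against 2384). For Cck the values were 2155 and 2441 CPM. The part of the markers in the pairs with these ligands was not tested either.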

How the data were processed

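Drop-seq counts of 13 medial amygdala libraries were used. The authors deposited 1 table of UMI counts per gene and cell, whole numbers without normalization, whose cell names hold the library and the authors' class. The submitters' processing notes name bcl2fastq 2.17.1.14, STAR 2.5.0a and the build mm10. The steps for collapsing UMIs and choosing cells are not stated in the sources used. The receptor genes, the companion lists and the markers were chosen with earlier results of these data known.

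A cell needed at least 500 detected genes. Scrublet, run per library in scanpy 1.11.5, marked 281 doublets (1.13%), which were removed. The table held 0 mitochondrially encoded genes. A transmitter group needs at least 1 UMI of its transporter and none of the other. Counts were summed per library and group, with 10 cells or more. The ligand fits within transmitter groups needed only 5 or more ligand-positive neurons per library and transmitter group. Sums were tested, two-sided, by quasi-likelihood F tests (edgeR 4.0.16, R 4.3.3, TMM scaling, filterByExpr, robust dispersion, Benjamini-Hochberg adjustment over all genes tested, threshold 0.05). Class, transmitter and ligand fits had the library as a block and the sex fits had none. SEs of log2 differences were derived from F (absolute difference over root F). Fitted log2 differences of genes near 0 in a group depend on the prior count, so levels are printed beside them. Thinning drew 800 UMIs per cell (1500 as an alternative). Counting intervals are exact at 95%, and a count of 0 allows up to 3 UMIs over the group. Both cover counting error only. The tests were checked on simulated counts.

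Named genes were all members past the threshold, the 3 of highest CPM among those not past it, and up to 4 of smallest adjusted p from each companion list. Genes named from fits without the count filter, and ligand pairs other than a receptor with its own ligand, were chosen after their values were seen. Gene positions came from GENCODE M21. Only the antisense gene Ipcef1 overlaps an exon of a member (Oprm1), and the use of strand in counting is not stated in the sources used. DESeq2 1.42.0, other scalings, filters, blocks and each library left out were alternatives.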

Additional observations from a re-analysis of the deposited data

Results flagged for a closer look

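In 68 groups of 6 male or 7 female libraries, the level of each called receptor gene was examined for a library far from the others by Dixon's ratio, which flags about 1 in 20 groups by chance. There were 3 such libraries. Oprl1 in neurons was 107 CPM in female replicate 2, against a median of 90.5 CPM over the 7 female libraries. Adcyap1r1 in newly formed oligodendrocytes was 39.0 CPM in female replicate 1, where the female median was 191 CPM. Vipr2 in the same class was 58.9 CPM in female replicate 3, where the female median was 13 CPM. Newly formed oligodendrocytes held 12 to 56 cells per library.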

How the results depend on the processing

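Without the filter on low counts, 32 receptor genes were called higher in neurons, 23 pairs of gene and other class were called higher (10 with the filter), and 8 genes each were higher with Slc32a1 and with Slc17a6. With at least 50 UMIs in place of filterByExpr, chosen after seeing the data, the last counts were 6 and 7. Neurons exceeded each other class singly for 7 genes (14.4% of all genes tested), and these 7 had passed the filter through neurons. DESeq2 called 46 pairs of gene and class lower, against 20 in edgeR, and leaving out 1 library gave 18 to 19. Leaving out 1 library at a time gave 12 to 13 genes higher in neurons, 10 to 11 pairs in other classes, 2 to 3 genes with Slc32a1 and 3 to 5 with Slc17a6, with Tacr1, Sstr2, Crhr1 or Npy2r gained, and 0 calls by sex or in the interaction each time. Within transmitter groups, also chosen after seeing the data, 15 ligand pairs were higher and 6 lower. Most of the higher ones were beside Penk or Adcyap1, where the backgrounds were highest. Of 27 called pairs also tested there, 26 kept their sign and 15 their call. Adcyap1r1 beside Adcyap1 reversed to 0.44 there, mostly from Slc17a6 neurons. Ntsr2 in neurons reversed to -0.32 when only neurons with a transporter UMI were used. The causes were not tested. Shares of cells without thinning and at 1500 UMIs were 16.8% and 14.4% for Npy2r in neurons (8.74% at 800), 94.1% and 95.6% for Ntsr2 in astrocytes (82.3%), 44.1% and 28.2% for Sstr1 in precursors (17.1%), and 33.5% and 34.1% for Npy1r in mural cells (19.6%). With the replicate number as a block, 0 receptor genes were called by sex. For same-numbered libraries, at most 3 of 6 pairs had a correlation of deviations over 0.1 in any of 5 cell groups (highest 0.32, in astrocytes). At most 2 of the 6 male libraries correlated best with the female library of their own number. These values cannot show that the libraries were unpaired. Depth limits the scarce receptors most: 20 of the 33 fell below the filter by class and 21 by transmitter.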

Other observations

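Neurons with UMIs of both transporters were in neither transmitter group, and their values were singled out after they were seen. These 51 neurons, 2 to 11 per library, had Npy2r at a pooled 435 CPM from 161 UMIs (95% counting interval 370 to 507), with 150 to 1438 CPM over the 13 libraries. Slc32a1 neurons had 172 CPM and Slc17a6 neurons had 135 CPM of Npy2r. Tacr1, the substance P receptor, had 113 CPM from 42 UMIs in the neurons with both, with 5 of the 13 libraries at 0. Trhr had 13.5 CPM there, from 5 UMIs. Their median depth was 3189 UMIs. No test was made, and whether some of these barcodes hold more than 1 cell was not tested beyond the removal of called doublets.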
